A study of Mus musculus with 12 samples.

Results

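The genes described here carry or make the small organic molecules that protect kidney medulla cells from salt and urea, or move urea itself. They are Slc5a3, Slc6a12, Slc6a6, Akr1b3, Nfat5, Slc14a1 and Slc14a2, which were chosen by name for their known function. Earlier results of these data were known when this choice was made. The deposited table lists 46882 gene names, and all 7 genes were found in it and passed the filter on low counts with 16910 genes in all. RNA was sequenced from whole kidneys of C57BL/6 animals at 6 to 8 weeks of age, from wild-type mice (WT, n = 6) and from animals lacking A1cf on both alleles (A1cf -/-, here A1cf KO, n = 6). A1cf encodes an RNA-binding partner of the cytidine deaminase APOBEC1. The labels call the animals biological replicates and name no other allele or treatment in either group. How the A1cf allele was made, and whether the animals were littermates, is not stated in the labels.

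The renal medulla holds the highest concentrations of salt and urea in the body, which lets the kidney concentrate urine. Cells there balance the salt outside by filling themselves with organic osmolytes (inositol, betaine, taurine and sorbitol) that do not disturb proteins. The transcription factor NFAT5, also called TonEBP, switches on the genes for uptake and synthesis of these osmolytes when the surroundings become hypertonic. Urea is kept in the medulla by recycling through the urea transporters of the collecting duct, the thin descending limb and the descending vasa recta.

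Libraries held 26671705 to 52899139 counts. Levels are given in CPM, which are counts brought to a common library total after TMM scaling, so they compare 1 gene between libraries. A1cf averaged 54.5 ± 7.39 CPM over WT libraries and 4.11 ± 1.07 CPM over A1cf KO libraries (SD, n = 6 each), with no overlap, so each library matched its genotype label. The tissue label is whole kidney, and markers of cortex and medulla were both present. The proximal tubule carrier Slc34a1 averaged 4527 CPM, the thick limb protein Umod 2651 CPM and the collecting duct water channel Aqp2 163 CPM. Because whole kidneys were used, fewer cells of a type and less RNA per cell cannot be told apart.

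One library, WT 777, stood apart before any comparison of genotypes. Its 9 markers of the urothelium that lines the renal pelvis summed to 127 CPM, against 5.29 to 24.7 CPM in the other WT libraries and 6.67 to 26.0 CPM in A1cf KO. All 9 were highest in WT 777, with Psca, a surface protein of urothelium, at 61.9 times the median of the other WT libraries. The genes next to Psca by this ratio, named after their values were seen, were Cidea, a lipid droplet gene of fat cells (53.7 times), and Igfbp2, which encodes a binding protein for insulin-like growth factors (52.5 times). Upk3a, Krt5 and Krt15 of this list were at 0 in 1 library each, and the thin limb marker Sptssb in 2. Summed markers of the thick limb (7261 CPM), the thin limbs (1465 CPM) and the collecting duct (879 CPM) were also highest in WT 777. Not every gene in these sums was: 4 of 8, 6 of 9 and 6 of 11 were highest there. The collecting duct genes Hsd11b2 (113 CPM) and Scnn1b (59.0 CPM) were at their lowest WT level in WT 777. The proximal tubule sum of WT 777, 10659 CPM, was the lowest of 12, but the lowest of the other WT libraries was close, at 10704 CPM. Values without WT 777 are given beside the results that it moved most.

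The animal numbers form a pair of series that are uneven between genotypes. The lower series, 573 to 602, holds 3 WT and 5 A1cf KO animals, and the higher, 776 to 780, holds 3 WT and 1 A1cf KO animal. The labels do not say whether these series are cohorts or batches.

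Set against exon length, the taurine carrier gene was the most abundant of the 7. Slc6a6 stood at 66.5 ± 7.68 CPM per kb of exon in WT (SD, n = 6), and Slc5a3, for inositol uptake, at 18.1 ± 5.28. Akr1b3 at 9.37 ± 9.55, the collecting duct urea transporter gene Slc14a2 at 7.97 ± 4.50 and Nfat5 at 6.29 ± 1.21 CPM per kb came next. Slc14a1 at 0.875 ± 0.540 and Slc6a12 at 0.526 ± 0.376 CPM per kb were lowest. In that order, only Slc6a6 over Slc5a3 and Nfat5 over Slc14a1 were separated without overlap across all 12 libraries. The ranges of Akr1b3, Slc14a2 and Nfat5 overlapped, and Akr1b3 exceeded Slc14a2 in 3 of 6 WT and 2 of 6 A1cf KO libraries. The A1cf KO means followed the same order for the first and last genes, with Slc6a6 at 66.9 ± 9.57 and Slc6a12 at 0.539 ± 0.304 CPM per kb. Exon lengths count every annotated exon segment, used or not, so long untranslated exons lower these values.

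**Figure D1:**
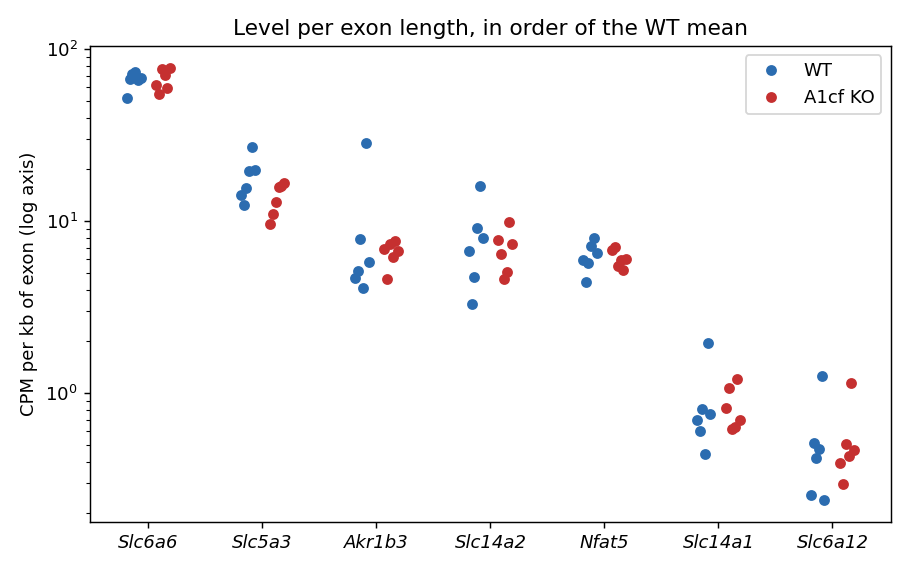
Level per exon length (y axis, CPM per kb of exon, log axis) of the 7 genes (x axis, in order of the WT mean), with 1 point per library (WT in blue, A1cf KO in red, n = 6 each). Slc6a6 lies above every other gene in all 12 libraries, and the single high WT points of Akr1b3, Slc14a2 and Slc14a1 are WT 777.

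Loss of A1cf was not accompanied by a called change in any of these genes. In the edgeR quasi-likelihood test 0 of the 7 passed an adjusted p of 0.05, where 0.0473% of all genes tested passed (8 genes). At an unadjusted p under 0.05 there was 1 of the 7, Slc5a3, against 10.4% of all genes. DESeq2 also called 0 of the 7 (1.01% of all genes), with 1 at an unadjusted p under 0.05 (11.2%). The genotypes overlapped for all 7, while they did not overlap for 0.840% of genes. The median log2 fold change (A1cf KO relative to WT) of the 7 was -0.07, with 5 negative, against -0.003 and 50.8% negative over all genes. Without WT 777, with the animal number series as a covariate, and within animals 573 to 602, 0 of the 7 passed as well (0.0588%, 0.142% and 0.0402% of all genes). In these 3 settings 0 of the 7 had an unadjusted p under 0.05 (10.3%, 12.9% and 7.50% of all genes). The number negative was 1, 2 and 1 of 7 (49.7%, 50.2% and 49.7% of all genes). The median without WT 777 was 0.11, so the sign of this median depended on 1 library.

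Slc5a3, the sodium-coupled carrier that brings myo-inositol into the cell, had the lowest p of the 7. The WT libraries ran from 135 CPM through a median of 192 to 295 CPM, and its A1cf KO libraries from 104 through 157 to 183 CPM. The lowest 3 of all 12 libraries were A1cf KO 574, A1cf KO 584 and WT 590 and the highest 3 were WT 776, 777 and 778, while the middle of the ranges overlapped. Slc5a3 had a log2 fold change of -0.40 (SE 0.18, 95% interval -0.79 to -0.015, unadjusted p = 0.043, edgeR adjusted p = 0.46). An exact two-sided permutation test of the mean log2 CPM gave p = 0.106 (n = 6 each). Without WT 777 the log2 fold change was -0.25, with the animal series as a covariate -0.19, and within animals 573 to 602 it was -0.10 (95% interval -0.46 to 0.25).

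In mm10, Slc5a3 spans 92058322 to 92087473 of chromosome 16, plus strand. Its first exon shares 159 bases with Mrps6, a mitochondrial ribosomal protein gene on the same strand, and reads there could not be given to 1 gene. The shared stretch is 159 of 10913 counted exon bases. Slc5a3 had 4366 to 14826 counts per library, so counting error is small beside the differences between animals.

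**Figure D2:**
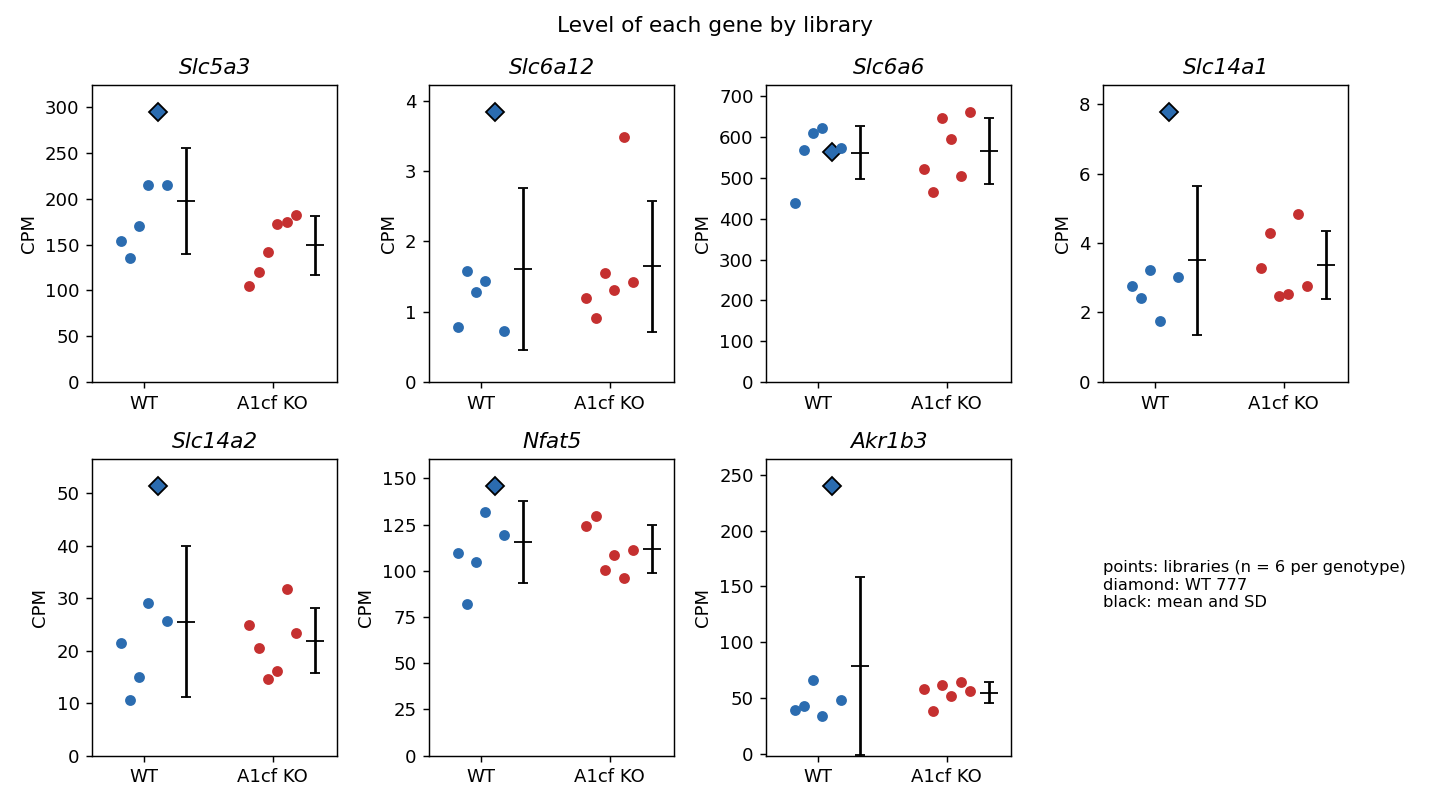
CPM (y axis, starting at 0 or, for Akr1b3, just below it to show the error bar) of each gene in each library (WT in blue, A1cf KO in red, n = 6 each), with mean and SD in black and WT 777 as a diamond. The genotypes overlap in every panel, and WT 777 is the highest library for 6 of the 7 genes.

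Slc6a12 encodes the betaine and GABA carrier, a textbook NFAT5 target, and was the least abundant of the 7. It ran from 0.729 CPM through a median of 1.36 to 3.84 CPM in WT libraries and in A1cf KO libraries from 0.905 through 1.37 to 3.49 CPM. WT 777 and A1cf KO 602 stood at more than 3 CPM, and the other 10 libraries lay between 0.729 and 1.57 CPM in both genotypes. Its log2 fold change was 0.02 (SE 0.41, 95% interval -0.85 to 0.90, edgeR adjusted p = 0.99), and it was -0.04 when libraries were scaled by total counts. It was 0.51 without WT 777 and -0.33 without A1cf KO 602, so the sign depended on which library was left out. With 33 to 193 counts per library it had the fewest counts of the 7.

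The region before the start of Slc6a12 is shown because this gene is the classic example of control through a tonicity-responsive enhancer (TonE), the DNA element that NFAT5 binds. Windows were taken from RefSeq (GRCm38.p6, the build of mm10), which held 5 start sites for Slc6a12, 1 for Slc5a3 and 1 for Nfat5. The TonE consensus was searched on both strands of the 250 bases before each start, as was its core TGGAAA, which is contained in the consensus. TonE matched 1 of the 5 Slc6a12 windows, on the plus strand 75 to 65 bases before the start at 121342574, and 0 of the other 6 windows. Over all 32851 windows 4.31% held a TonE match and 18.6% the core. These are shares per window, while Slc6a12 had 5 windows, some of which overlap. In the sequences below, from chr6:121342324-121342573 and chr16:92058072-92058321, both on the plus strand, capitals mark the TonE match.
Slc6a12: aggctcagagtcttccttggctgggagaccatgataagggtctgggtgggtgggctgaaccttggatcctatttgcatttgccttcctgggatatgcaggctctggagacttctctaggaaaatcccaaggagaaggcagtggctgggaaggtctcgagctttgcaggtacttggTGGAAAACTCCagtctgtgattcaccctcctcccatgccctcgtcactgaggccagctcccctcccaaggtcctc
Slc5a3: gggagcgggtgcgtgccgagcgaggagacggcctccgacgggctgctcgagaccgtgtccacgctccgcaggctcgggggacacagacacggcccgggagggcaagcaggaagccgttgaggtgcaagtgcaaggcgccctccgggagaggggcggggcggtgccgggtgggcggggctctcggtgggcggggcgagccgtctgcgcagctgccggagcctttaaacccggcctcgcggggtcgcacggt
The Slc5a3 window, shown beside it, had neither motif. Sequence further than 250 bases before a start was not searched, so the absence of a match covers these windows only. A match is a match of letters only. The matched Slc6a12 start lies before the gene's first counted exon base at 121343076, so reads from a first exon there would not be in the counts.

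Slc6a6, the taurine carrier, was the most evenly expressed of the 7 among WT libraries. In WT it ran from 439 CPM through a median of 570.3 to 622 CPM, and in A1cf KO from 465 through 559 to 662 CPM. WT 573 was the lowest of the 12, A1cf KO 780 the highest, and the genotypes lay within the same range. The difference on the log2 scale was 0.01 (SE 0.10, 95% interval -0.21 to 0.23, edgeR adjusted p = 0.98), or -0.03 with total counts as the scaling. WT 777 did not stand apart here, at 0.98 times the median of the other WT libraries. The SD was 11.6% of the mean in WT and 14.3% in A1cf KO. Slc6a6 spans 91684053 to 91759066 of chromosome 6 on the plus strand. It shares 117 of 8457 exon bases with a clone-based gene on the other strand that had 6 to 29 counts per library.

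Akr1b3 encodes aldose reductase, which makes sorbitol from glucose, and it showed the greatest distance between WT 777 and the rest. WT levels ran from 34.0 CPM through a median of 45.6 to 240.4 CPM, and A1cf KO levels from 38.4 through 57.0 to 64.0 CPM. WT 777 alone was far above, at 5.60 times the median of the other WT libraries, which reached 66.3 CPM at most. The mean over WT was 78.6 ± 80.0 CPM and that over A1cf KO 54.9 ± 9.15 CPM (SD, n = 6 each). Without WT 777 the WT mean was 46.2 ± 12.4 CPM (SD, n = 5). With all libraries the log2 fold change was -0.52 (SE 0.41, 95% interval -1.40 to 0.36, edgeR adjusted p = 0.69). It was 0.25 (SE 0.16, 95% interval -0.087 to 0.59, adjusted p = 0.61) without WT 777. Akr1b3 spans 34302434 to 34317478 of chromosome 6 on the minus strand.

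Nfat5, the tonicity-activated transcription factor itself, had the smallest SD of the 7 relative to its mean in A1cf KO (11.8%). Across WT libraries it ran from 81.8 CPM through a median of 115 to 146 CPM, and across A1cf KO libraries from 95.9 through 110.0 to 129.8 CPM. The A1cf KO range lay wholly inside the WT range, with WT 590 lowest and WT 777 highest of the 12. Nfat5 had a log2 fold change of -0.05 (SE 0.12, 95% interval -0.30 to 0.21, edgeR adjusted p = 0.92), and 0.03 without WT 777. RNA level says nothing of NFAT5 protein in the nucleus, which is a main point of its control. It spans 107293470 to 107379517 of chromosome 8 on the plus strand.

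The urea transporter genes Slc14a1 and Slc14a2 are neighbours on chromosome 18, 4820 bases apart on the minus strand (78100091 to 78142119 and 78146940 to 78209094). Slc14a1 encodes UT-B, the urea transporter of the descending vasa recta and of red blood cells. Its WT libraries ran from 1.77 CPM through a median of 2.90 to 7.77 CPM, and its A1cf KO libraries from 2.48 through 3.03 to 4.84 CPM. WT 777 was highest and WT 776 lowest, with every A1cf KO library between them. The log2 fold change was -0.07 (SE 0.31, 95% interval -0.73 to 0.59, edgeR adjusted p = 0.96). It turned to 0.34 (SE 0.21, 95% interval -0.11 to 0.79) without WT 777.

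Slc14a2 encodes the UT-A transporters, of which the collecting duct and thin limb forms come from 1 gene. WT libraries ran from 10.5 CPM through a median of 23.5 to 51.4 CPM, and A1cf KO libraries from 14.7 through 22.0 to 31.7 CPM. The A1cf KO range again lay inside the WT range, which ran from WT 590 to WT 777. The log2 fold change was -0.22 (SE 0.31, 95% interval -0.88 to 0.43, edgeR adjusted p = 0.84). It was 0.11 without WT 777, 0.18 with the series as a covariate, and 0.46 (95% interval -0.14 to 1.05) within animals 573 to 602. Counts by gene name do not separate the UT-A forms.

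**Figure D3:**
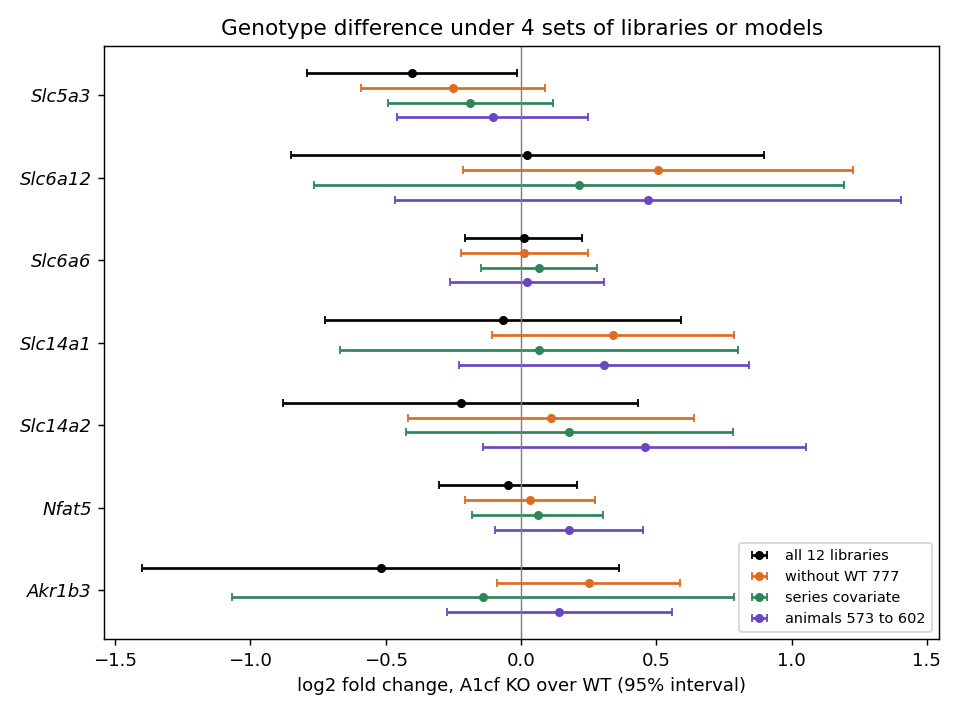
Difference between genotypes (x axis, log2 fold change of A1cf KO over WT, with 95% interval) of each gene with all 12 libraries (black), without WT 777 (orange), with the animal number series as a covariate (green) and within animals 573 to 602 (purple). Slc5a3 is the only gene below 0 in all 4, and the estimates of Akr1b3, Slc14a1, Slc14a2 and Nfat5 lie on the other side of 0 without WT 777.

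WT 777 was the highest of 12 libraries for 6 of the 7 genes, where it was highest for 1375 of the 13706 genes with a mean of at least 1 CPM. It stood at 2 or more times the median of the other WT libraries for 4 of the 7, against 1.92% of those genes. The 4 were Akr1b3 (5.60 times), Slc6a12 (3.01), Slc14a1 (2.80) and Slc14a2 (2.41). Slc5a3 was at 1.73 times that median and Nfat5 at 1.33 times. In A1cf KO, library 602 was highest for Slc6a12, Slc14a1, Slc14a2 and Akr1b3, and it had the highest urothelium sum of its genotype (26.0 CPM). By the mean log2 CPM of the same markers, A1cf KO 574 was higher than A1cf KO 602 (1.30 against 1.15). A1cf KO 574 had 1.20 CPM of Slc6a12, 3.29 of Slc14a1, 24.8 of Slc14a2 and 57.7 of Akr1b3. The part of tissue makeup in these values was not tested.

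**Figure D4:**
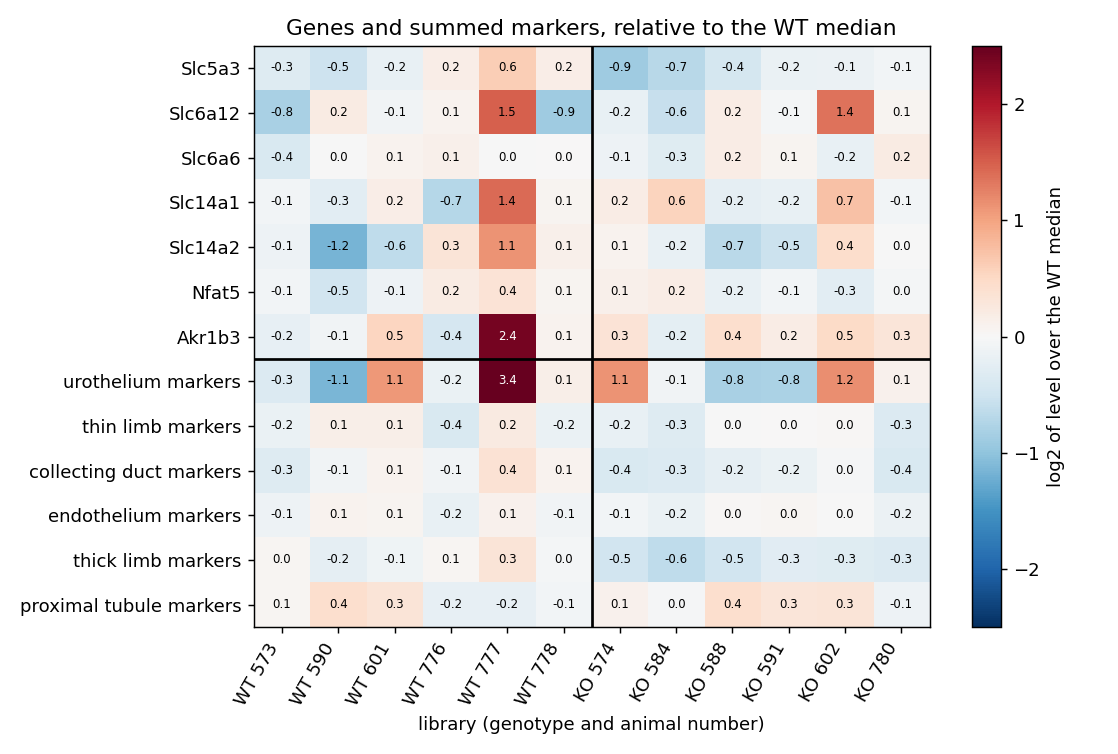
Log2 of the level in each library (x axis) over the WT median, for the 7 genes and for summed markers of 6 cell types (y axis), with the value in each cell. WT 777 is the darkest column, led by Akr1b3 at 2.4 and the urothelium markers at 3.4.

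Within WT, 3 of the 7 genes also followed the animal number series. Slc5a3, Slc14a2 and Nfat5 were higher in each of WT 776, 777 and 778 than in each of WT 573, 590 and 601, as were 9.53% of all genes. For Slc5a3 the lower WT series had 154, 135 and 170.0 CPM and the higher one 215, 295 and 215 CPM. For Slc14a2 they had 21.4, 10.5 and 15.1 CPM against 29.2, 51.4 and 25.6 CPM. For Nfat5 they had 109.6, 81.8 and 105 CPM against 132, 146 and 119 CPM. The step was widest for Slc14a2 of these 3. WT 777 was at the top for each, and the other 2 animals of its series still lay above the lower series. The log2 differences between the WT series were 0.66 for Slc5a3 (edgeR adjusted p = 0.077), 1.18 for Slc14a2 (0.13) and 0.42 for Nfat5 (0.18). None of the 7 passed the threshold, which 0.704% of genes did. The A1cf KO animal of the higher series had 183 CPM of Slc5a3, 23.4 of Slc14a2 and 111 of Nfat5, below all 3 WT animals of its series for each. A test of whether the genotype difference itself depended on the series gave an edgeR adjusted p of 1.0 for each of the 7. With 1 A1cf KO animal in the higher series, this test is weak.

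The 7 genes were not shown to vary together from kidney to kidney. Of the 21 pairs, 0 passed an adjusted p of 0.05 for Pearson's r over 12 libraries. By Spearman's rho 0 passed either (lowest adjusted p = 0.40). The lowest adjusted p for r was 0.059, shared by 3 pairs. For Slc14a1 with Akr1b3, r was 0.78 (rho 0.55, permutation p = 0.00845), and it was 0.26 without WT 777 and A1cf KO 602. For Slc14a2 with Nfat5, r was 0.74 (rho 0.61, permutation p = 0.00645), and it was 0.31 without WT 777 and WT 590. For Slc6a12 with Akr1b3, r was 0.71 (rho 0.45, permutation p = 0.00754), and it was 0.30 without WT 777 and A1cf KO 602. Within animals 573 to 602 (n = 8) these r were 0.14, 0.50 and 0.62, and the other series holds too few libraries for an r. Without WT 777 alone they were 0.41, 0.62 and 0.46.

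Markers of medullary cell types, vessels and urothelium were compared with each gene in the same way, with the 7 genes left out of the marker means. Of 35 relations, 8 passed an adjusted p of 0.05. The relation of Nfat5 with endothelial markers had the lowest p, with r = 0.86 (permutation p = 3.5e-04, adjusted p = 0.012) and rho = 0.92 (permutation p = 4.0e-05, adjusted p = 0.0014). It was 0.87 within animals 573 to 602 (n = 8, exact permutation p = 0.0070, adjusted p = 0.25) and 0.86 without WT 590 and WT 601 (adjusted p = 0.057). Without WT 777 it was 0.83 (adjusted p = 0.0497). Slc14a2 followed the endothelial markers with r = 0.74 (permutation p = 0.0049, adjusted p = 0.035), while its rho of 0.64 did not pass (adjusted p = 0.19). Its r was 0.56 without WT 590 and WT 601 (adjusted p = 0.65) and 0.68 without WT 777 (adjusted p = 0.26).

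The other 6 relations were with epithelial markers, and their r was lower without WT 777. Slc14a2, Slc14a1 and Akr1b3 followed the urothelium markers with r = 0.83, 0.80 and 0.77 (adjusted p = 0.024, 0.035 and 0.039). Leaving out WT 590 and WT 777 brought these to 0.49, 0.57 and 0.38, and leaving out WT 777 alone to 0.70, 0.57 and 0.42. Akr1b3 and Slc14a1 followed the thin limb markers with r = 0.88 and 0.77 (adjusted p = 0.036 and 0.039), and Slc5a3 followed the collecting duct markers with r = 0.76 (adjusted p = 0.035). Without WT 601 and WT 777 these were 0.31, 0.41 and 0.61, and without WT 777 alone 0.47, 0.40 and 0.56. The rho of these 6 ran from 0.57 to 0.87 and the permutation p of r from 0.0014 to 0.0088, and within animals 573 to 602 r ran from 0.50 to 0.79. By Spearman's rho only Slc14a1 with urothelium markers (0.87, adjusted p = 0.011, and 0.83 without WT 777) passed among these 6. Neither Slc6a6 nor Slc6a12 passed with any of the 5 marker lists over all 12 libraries. For Slc6a6 r was 0.14 with collecting duct and 0.036 with thin limb markers, and for Slc6a12 it was 0.55 and 0.64. After each genotype's mean was subtracted, the r of Slc6a12 were 0.72 and 0.71 (permutation test, adjusted p = 0.030 and 0.034). Without WT 777 they were 0.17 and 0.27. Within animals 573 to 602 0 of 35 relations passed, and without WT 777 only that of Nfat5 with endothelial markers did.

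**Figure D5:**
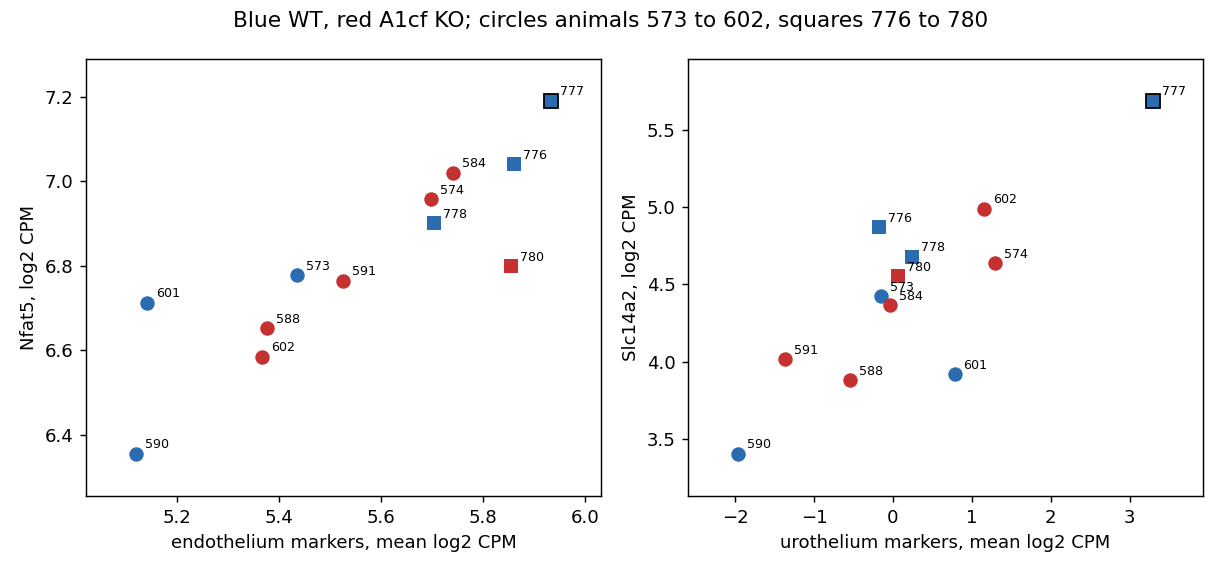
Left, Nfat5 (y axis, log2 CPM) against the mean log2 CPM of endothelial markers (x axis), and right, Slc14a2 against that of urothelium markers, with 1 point per library labelled by animal number (blue WT, red A1cf KO, circles 573 to 602, squares 776 to 780). The left relation (r = 0.86) is spread over all libraries, while the right one (r = 0.83) is stretched by WT 777 and WT 590 at the ends.

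For each of the 7, the 3 genes whose log2 CPM was most alike over the 12 libraries were taken among 12562 genes, after each genotype's mean was subtracted. This is a description, with no test. For Nfat5 they were Tcf4, a transcription factor gene (r = 0.98, and 0.98 without WT 777), the BMP receptor gene Bmpr2 (0.95 and 0.93) and Zfp26 (0.94 and 0.95). For Slc5a3 they were Pfkp, the platelet-type phosphofructokinase gene (0.97 and 0.96), the protease-activated receptor gene F2rl1 (0.94 and 0.90) and the nuclear receptor gene Esrrb (0.93 and 0.91). For Slc14a2 they were Mycl (0.97 and 0.95), Stk39, which encodes the kinase SPAK that acts on chloride cotransporters (0.96 and 0.94), and Dennd2d (0.96 and 0.93).

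For Slc6a6 the nearest genes were Gtf2h1, a subunit of the general transcription factor TFIIH (r = 0.95, and 0.96 without WT 777), Taf4b (0.93 and 0.94) and Herpud1 of the endoplasmic reticulum stress response (0.93 and 0.93). For Slc14a1 they were Apcdd1 (0.96 and 0.90), the transcription factor gene Elf5 (0.93 and 0.84) and Hacd4 (0.93 and 0.79). For Slc6a12 they were Synj2 (0.92 and 0.86), the glycogen phosphorylase gene Pygb (0.91 and 0.91) and Sik2 (0.90 and 0.82). For Akr1b3 they were Atp10b (0.95 and 0.72), Wnt4 (0.95 and 0.60) and Ndrg4 (0.94 and 0.73). The drop without WT 777 was greatest for Akr1b3, and its 3 nearest genes each had their highest level in WT 777 (12.2, 14.6 and 13.02 CPM, against medians of 2.93, 1.45 and 1.44 CPM over 12 libraries). The 3 nearest genes of Slc5a3, Slc14a1 and Slc14a2 were each highest in WT 777 as well, such as Elf5 at 13.5 CPM against a median of 1.91 CPM.

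Other genes of osmolyte handling were mostly near 0. In a list for synthesis, breakdown and other carriers of osmolytes, 22 of 23 genes were tested and 0 passed in edgeR. At an unadjusted p under 0.05 there were 4 higher and 0 lower (5.07% and 5.28% of all genes), and the list's median was 0.01. With the animal number series in the fit there were 4 higher and 3 lower (6.53% and 6.39% of all genes). Within animals 573 to 602 there were 1 higher and 3 lower (4.04% and 3.46%), so the direction of these counts turned with the samples used. Slc38a2, which carries neutral amino acids and is induced by hypertonicity, averaged 64.8 ± 7.43 CPM over WT and 87.0 ± 13.2 CPM over A1cf KO libraries (SD, n = 6 each). The log2 fold change of Slc38a2 was 0.42 (SE 0.098, edgeR adjusted p = 0.17). It passed with DESeq2 (0.43, adjusted p = 0.014), and also once the animal number series entered the fit (0.52, adjusted p = 0.010, where 0.142% of genes passed). Its WT libraries reached 74.8 CPM and its A1cf KO libraries began at 72.4 CPM, and the libraries in this overlap were WT 776, WT 777 (73.0 CPM) and A1cf KO 602. Chdh, which makes betaine from choline, was at 364 ± 25.3 and 418 ± 27.0 CPM, and Impa1, which frees inositol, at 64.8 ± 4.75 and 73.7 ± 4.81 CPM (adjusted p = 0.31 and 0.33). Sord, which turns sorbitol into fructose, had a log2 fold change of 0.01, and was named for its place beside Akr1b3 after its value was seen.

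Of the 19 genes in a list of the tonicity response, with regulators and described targets of NFAT5, all were tested and 0 passed in edgeR. At an unadjusted p under 0.05, 3 were higher and 0 lower (5.07% and 5.28% of all genes), with a list median of 0.04. Without WT 777, 5 were higher and 0 lower, beside 894 higher and 867 lower of all 17018 genes tested. With total counts as the scaling 2 were higher and 1 lower (3.02% and 8.27% of all genes). Ptgs2, the inducible cyclooxygenase of medullary interstitial cells, had 0.440 ± 0.231 CPM over WT and 0.897 ± 0.419 CPM over A1cf KO libraries (SD, n = 6 each). Hspa1a, an inducible HSP70 gene, was at 8.91 ± 3.37 and 18.2 ± 17.1 CPM, with A1cf KO 591 at 52.4 CPM. Its log2 fold change of 1.03 was 0.35 without that library. Akap13, an NFAT5 activator also named Brx, was at 63.0 ± 7.69 and 72.0 ± 7.30 CPM. Their adjusted p ran from 0.39 to 0.47, and DESeq2 called 0 genes of this list as well. The targets Cryab and Aqp2 had log2 fold changes of -0.40 and -0.44 (edgeR adjusted p = 0.59 and 0.51), and were named after their values were seen. Without WT 777, which had 264 CPM of Cryab and 319 CPM of Aqp2, these were -0.042 and -0.22 (edgeR adjusted p = 0.92 and 0.69).

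Genes for urea, water and the concentrating mechanism had lower estimates in A1cf KO. Of 18 tested genes of 20 listed, 17 had a negative log2 fold change with a median of -0.12, against 50.8% negative and -0.003 over all genes. In edgeR 0 passed, and 0 were higher and 6 lower at an unadjusted p under 0.05, which 5.28% of all genes were. The 6 became 4 with the series as a covariate (6.39% of all genes) and 2 within animals 573 to 602 (3.46%). Aqp6, a channel of intercalated cells, averaged 52.0 ± 10.1 CPM over WT and 40.7 ± 6.00 CPM over A1cf KO libraries (-0.35 on the log2 scale), and Rhbg, an ammonia transporter, 7.73 ± 1.25 and 6.29 ± 0.378 CPM (-0.30). Their edgeR adjusted p was 0.35 and 0.38, and DESeq2 called 0 genes of this list. The count of negative values was 15 of 18 without WT 777, and 14 of 18 both within animals 573 to 602 and with the series as a covariate.

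Several of these genes belong to the thick limb and the collecting duct, whose marker sums stand beside them here. Summed thick limb markers (8 of 8 detected) ran from 4972 to 7261 CPM in WT and from 3774 to 4784 CPM in A1cf KO, without overlap, with and without WT 777. Collecting duct sums (11 genes) ran from 552 to 879 CPM in WT, or to 733 CPM without WT 777, and from 530 to 678 CPM in A1cf KO. Avpr2, the vasopressin receptor, was at 0 in 1 library. The part of these segments' share of the kidney in the values above was not tested. Endothelial sums ran from 1167 to 1423 CPM in WT and from 1179 to 1367 CPM in A1cf KO. Red blood cell sums ran from 251 to 432 CPM in WT and from 161 to 458 CPM in A1cf KO. The Slc14a1 values stand beside both sums, and r of Slc14a1 was 0.23 with endothelial and 0.092 with red blood cell markers. Its r was higher with urothelium (0.80) and thin limb markers (0.77), and without WT 777 these were 0.57 and 0.40. Aqp1, which the proximal tubule also expresses, makes up most of the endothelial and thin limb sums at a mean of 996 CPM.

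Cell volume regulators were tested in full (16 of 16), and 0 passed in edgeR or DESeq2, with a median of 0.05. In edgeR 3 were higher and 1 lower at an unadjusted p under 0.05 (5.07% and 5.28% of all genes). With total counts as the scaling there were 0 higher and 2 lower (3.02% and 8.27% of all genes). Within animals 573 to 602 there were 1 higher and 0 lower (4.04% and 3.46%). Slc12a2, the sodium, potassium and chloride cotransporter of the basolateral membrane, averaged 34.8 ± 10.2 CPM over WT and 45.0 ± 6.00 CPM over A1cf KO libraries (log2 difference 0.37, edgeR adjusted p = 0.41), or 0.55 without WT 777 (edgeR adjusted p = 0.063). The kinase genes upstream of such cotransporters, Stk39 and Oxsr1, had log2 fold changes of -0.26 (29.2 ± 4.70 and 24.4 ± 2.11 CPM) and 0.11 (57.3 ± 1.17 and 61.8 ± 2.63 CPM). Stk39 was also highest in WT 777, at 36.9 CPM, and its value without that library was -0.18. The 5 subunit genes of the volume-regulated anion channel, through which cells release osmolytes on swelling, had log2 fold changes from -0.38 (Lrrc8e) to 0.13 (Lrrc8d). Their unadjusted p ran from 0.15 (Lrrc8a) to 0.63 (Lrrc8b), and they were named after their values were seen.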

How the data were processed

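Counts were deposited by the authors in 1 table with a column for each of the 12 kidney libraries. Per the file headers, featureCounts 1.5.0-p2 was run by the authors on GENCODE M8 exons summed by gene name, and its command set no option for strand, read pairs or duplicates. The submitters' processing notes name STAR, DESeq2 and the mm10 build, with no version of the first 2 given in the sources used here. Reads on overlapping exons of opposite strands could thus not be told apart by strand, and gene counts do not resolve isoforms or editing. No per-sample column was left out.

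Counts were tested in R 4.3.3 with edgeR 4.0.16 (filterByExpr by genotype, TMM scaling, quasi-likelihood F test, Benjamini-Hochberg adjustment over all 16910 genes tested, threshold 0.05), with no covariate and no replicate block. CPM were computed on TMM-scaled totals, with a prior count of 2 for their log2. Each of the 7 genes was also given an exact two-sided permutation test over the 924 divisions of 12 libraries into 6 and 6, of which the smallest p is 0.0022. Correlations have permutation p-values from 100000 permutations (exact within animals 573 to 602), adjusted over 21 or 35 relations.

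The 7 genes and all gene lists were chosen with earlier results of these data known. Besides A1cf and the 7, genes were named by rule: the 3 most alike to each, the 3 with the lowest p of each pathway list without a gene past the threshold, and the 2 most abundant of each marker list, of which only some are given. One pathway gene that the rule names is not reported here. Others are marked as named after their values were seen. Predicted genes and clone names were left out of the comparison of likeness.

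Alternatives were DESeq2 size factors, upper-quartile scaling or total counts as scaling, no filter or a filter of 1 CPM in 6 libraries, the DESeq2 1.42.0 Wald test, limma-voom (limma 3.58.1), the animal number series as a covariate, only animals 573 to 602, and leaving out each library. Correlations, likeness and list counts without WT 777, and list counts in other settings, were added after seeing the data. Scripts were tested on simulated counts. Sequences are from RefSeq (GRCm38.p6).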

Additional observations from a re-analysis of the deposited data

Results flagged for a closer look

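In 7 of 30 groups of 6 libraries (each gene and each marker sum in each genotype), 1 library lay further from its nearest neighbour than Dixon's test at the 95% level allows, where chance gives about 5% of groups. WT 777 was such a library in 4 of the 7. It had 240.4 CPM of Akr1b3, 7.77 CPM of Slc14a1, 3.84 CPM of Slc6a12 and a urothelium marker sum of 127 CPM, each the highest in WT. A1cf KO 602 had 3.49 CPM of Slc6a12, the highest of its genotype. WT 573 had 439 CPM of Slc6a6, the lowest in WT. A1cf KO 584 had a red blood cell marker sum of 458 CPM, the highest of its genotype. What sets these libraries apart was not tested.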

How the results depend on the processing

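None of the 7 genes passed the threshold in any of the 21 alternatives run, while the number of genes called rose from 8 to 24 with the series covariate and to 170 with DESeq2, and was 6 to 12 when 1 library was left out. Only Slc5a3 kept its sign in all 21, from -0.49 to -0.10. With total counts as the scaling, which moved the median of all genes to -0.04 and the genes with an unadjusted p under 0.05 from 858 higher and 893 lower to 511 and 1399, Slc6a12 was at -0.035 and Slc6a6 at -0.026. With the series covariate Slc14a1 was at 0.067, Slc14a2 at 0.18 and Nfat5 at 0.061. Within animals 573 to 602 these 3 were at 0.31, 0.46 and 0.18, and Akr1b3 at 0.14. Leaving out 1 library gave -0.33 to 0.51 for Slc6a12, -0.052 to 0.061 for Slc6a6, -0.20 to 0.34 for Slc14a1, -0.39 to 0.11 for Slc14a2, -0.13 to 0.032 for Nfat5 and -0.67 to 0.25 for Akr1b3. The positive end was reached without WT 777 for Slc6a12, Slc14a1, Slc14a2, Nfat5 and Akr1b3. Relations with markers past the threshold numbered 13 after each genotype's mean was subtracted, 0 within animals 573 to 602, 0 without the 2 farthest libraries and 1 without WT 777, against 8 in all libraries. The causes were not tested. No paired analysis was run, because the labels name no pairs and do not say whether the animals were littermates. Depth limits Slc6a12 and Slc14a1 most, with 33 to 193 and 48 to 391 counts per library.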
